A study of Mus musculus with 6 samples.

Results

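The 10 genes described here make up the core of the major histocompatibility complex (MHC) class II presentation system of the mouse. They were chosen by name, as the genes of the classical class II chains (H2-Aa, H2-Ab1, H2-Eb1), the invariant chain (Cd74), the peptide editor H2-DM (H2-DMa, H2-DMb1, H2-DMb2), its inhibitor H2-DO (H2-Oa, H2-Ob) and the transactivator Ciita. All 10 were found among the 40808 Entrez gene IDs of the count table, and all 10 passed the filter on low counts. The study sequenced mRNA 3′ ends from the spleens of mice that had received a bone marrow transplant, and the labels describe the RNA as coming from splenic leukaemia cells. There were 3 libraries from mice not given Dox (replicates 4, 5 and 6) and 3 from mice given Dox (replicates 10, 11 and 12). The series title names UVRAG, the ubiquitin ligase ITCH and ESCRT sorting as a checkpoint on NOTCH. The labels write Dox without an explanation, and they give no dose, duration, transgene, strain, sex or age. They also do not say whether each library is 1 animal, so p-values here measure the spread between libraries, which may be technical.

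Class II molecules present peptides from endosomes to CD4+ T cells. An α and a β chain pair in the endoplasmic reticulum with the invariant chain, which blocks the peptide groove and guides the complex to endosomes. Proteases there trim the invariant chain down to a fragment called CLIP, H2-DM exchanges CLIP for other peptides, and H2-DO restrains H2-DM, mainly in B cells. CIITA is a coactivator that does not bind DNA itself: it is recruited by RFX, CREB and NF-Y proteins assembled on the X and Y boxes that class II promoters share. B cells, dendritic cells and activated macrophages carry class II in the spleen, whereas mouse T cells carry little.

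The shared promoter layout is shown first, because these genes are known for a common switch and their changes below differ in size. RefSeq promoter sequence (GRCm38.p6, from 250 bases before to 50 bases after a start site) was at hand for 7 of the 10 members, with 8 start sites. The stretches below run 5′ to 3′ on the gene's strand and are aligned on the Y box, the pentamer ATTGG, in capitals. It is the inverted form of the CCAAT motif bound by NF-Y. Matches to AGNNACNG, used as the core of the X1 box, are also in capitals.
H2-Aa: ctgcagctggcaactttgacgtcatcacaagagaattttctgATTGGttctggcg
H2-Eb1: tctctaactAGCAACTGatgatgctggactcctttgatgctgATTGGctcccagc
H2-DMb1: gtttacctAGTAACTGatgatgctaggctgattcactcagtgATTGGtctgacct
H2-DMb2: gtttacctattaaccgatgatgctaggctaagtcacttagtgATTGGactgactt
H2-Ob: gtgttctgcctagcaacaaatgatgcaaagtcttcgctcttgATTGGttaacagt
H2-Oa: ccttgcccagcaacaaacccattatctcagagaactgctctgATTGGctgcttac
The H2-Aa stretch lies at chr17:34287859-34287913 on the minus strand. The others are on the plus strand, at chr17:34305766-34305820 for H2-Eb1, chr17:34153088-34153142 for H2-DMb1, chr17:34145117-34145171 for H2-DMb2, chr17:34238806-34238860 for H2-Ob and chr17:34092294-34092348 for H2-Oa. The start site listed for H2-DMb2 lies inside the span of its gene in RefSeq.

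The Y box began 43 bases (H2-Oa) to 90 bases (H2-DMb2) upstream of the listed start in these 6 genes. In H2-DMa, the remaining gene, it lay 198 bases upstream of 1 of its 2 listed starts and was not found at the other. All 7 genes thus held ATTGG on the gene's strand, against 22.1% of the 32851 promoters in the table. AGNNACNG was present on either strand in 5 of the 7 genes and in 50.9% of all promoters. The core followed on the gene's strand by ATTGG, with 5 to 35 bases between them, occurred in H2-Eb1 (25 bases between) and H2-DMb1 (26 bases between) and in 0.77% of all promoters. H2-DMb1 and H2-DMb2, neighbouring copies of the β chain gene, differed at 7 of the 55 positions shown. Only exact matches were counted. The H2-Ob and H2-Oa stretches hold a run that differs from AGNNACNG in the last letter alone, so a missing match does not show that a promoter lacks an X box. These matches describe letters in a window and are not evidence of binding.

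Total counts per library ran from 5541486 to 8725767. Levels are given as normalized CPM, counts scaled to a common library size after TMM (which adjusts for library composition). A floor of 3 counts, taken for a gene at 0, corresponded to 0.34 to 0.54 CPM before TMM scaling. That floor covers counting error only. Haemoglobin genes together held 8.61% to 9.04% of counts without Dox and 14.13% to 15.89% with Dox. Y-linked genes had 545 to 801 counts in each library without Dox and 0 in each with Dox, while Xist had 193 to 324 and 3347 to 5669. The effect of Dox thus cannot be told apart from a difference in the sex of the cells or in sex-linked expression. The labels do not give the sex. Genes were compared with the edgeR quasi-likelihood test and called at an adjusted p-value under 0.05 over 14110 tested genes. Of these 45.6% were called, 23.6% higher and 22.1% lower with Dox, which is the background for every count below. Higher genes were 51.6% of the calls with TMM scaling and 64.1% when libraries were scaled by size only, which moved the median over all tested genes up by 0.30 (log2).

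Class II genes were much more abundant in the spleens of mice given Dox. With Dox 9 of 10 members were higher, beside a background of 23.6%, and none was lower. H2-Ob is among the 9 and passed the low-count filter only through the Dox group, where it is high. Without it 8 of 9 members were higher. The exception was H2-Oa, the α chain of H2-DO. The median log2 fold change of the 10 members was 3.38, beside 0.07 for all tested genes. In 9 of 10 members every library with Dox exceeded every library without it, H2-Ob included, and this was the case for 30.0% of all tested genes. The summed level of the 10 genes was 261, 271 and 317 CPM without Dox (replicates 4, 5 and 6) and 3331, 3307 and 2052 CPM with Dox (replicates 10, 11 and 12). Replicate 12 was the lowest of the Dox libraries and still stood far above the control libraries. The ratio of the means was 10.2-fold (exact two-sided permutation p = 0.1, the smallest that 3 against 3 allows). In spleen RNA of this kind, more cells of a type and more RNA per cell cannot be told apart.

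**Figure D1:**
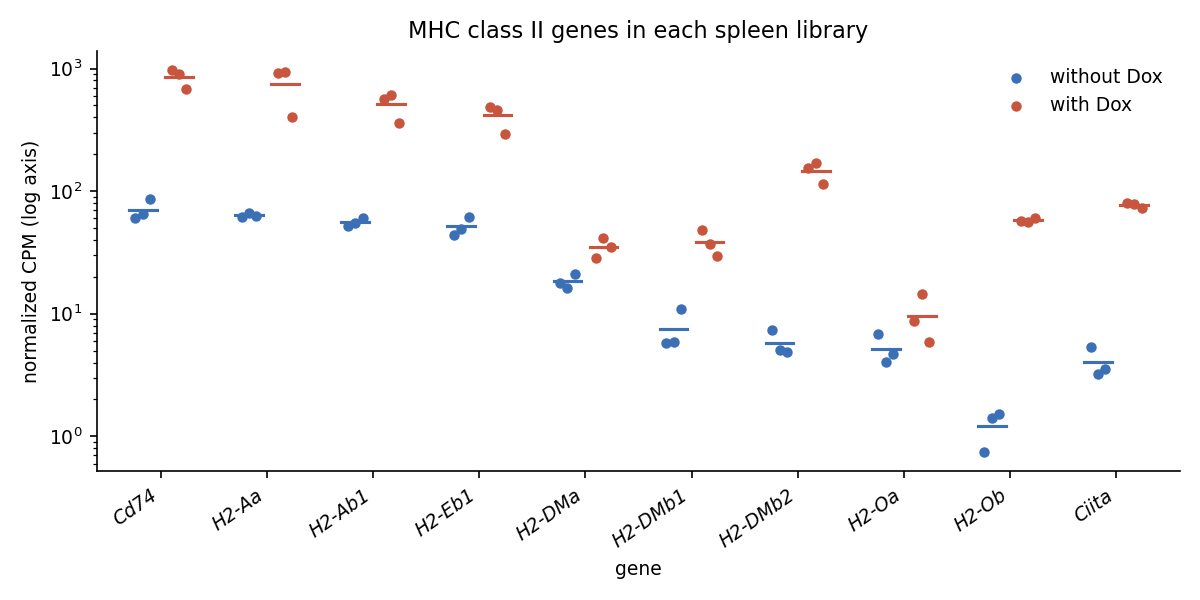
Normalized CPM of the 10 class II genes in each library (points, log axis) with group means (bars). The groups are separate in 9 genes and overlap in H2-Oa, where a Dox library at 5.90 CPM lies below a control library at 6.82 CPM.

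Cd74 encodes the invariant chain, the chaperone of newly made class II dimers. Its level was 60.4, 64.9 and 85.6 CPM without Dox and 975, 903 and 684 CPM with Dox, resting on 322 to 508 and on 5219 to 8821 counts. The groups were far apart: Cd74 changed by a log2 fold of 3.60 ± 0.21 (SE), a 12.1-fold rise (edgeR adjusted p = 2.39e-06). Only 3.64% of tested genes rose by as much or more.

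The classical chains rose by 8.02-fold to 11.9-fold. H2-Aa, the α chain of the I-A molecule, was at 61.1, 66.7 and 62.5 CPM in the control and 925, 935 and 401 CPM in the Dox libraries. The control libraries were nearly equal (coefficient of variation 4.56%), whereas Dox replicate 12 held less than the other two Dox libraries. The log2 fold change of H2-Aa was 3.57 ± 0.31 (SE, edgeR adjusted p = 1.70e-05). Its partner H2-Ab1, the I-A β chain, was at 51.9, 54.6 and 60.3 CPM in the control and 565, 611 and 357 CPM in the Dox libraries (log2 fold change 3.20 ± 0.23 (SE), edgeR adjusted p = 5.36e-06). H2-Eb1, the β chain of the I-E molecule, was at 44.1, 48.8 and 62.0 CPM in the control and 489, 460 and 293 CPM in the Dox libraries (log2 fold change 3.0 ± 0.24 (SE), edgeR adjusted p = 1.01e-05). Replicate 12 was again the lowest Dox library in these genes, and no Dox library came near a control library.

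The genes that complete or resemble the I-E molecule were measured as well. H2-Ea, the I-E α chain, is annotated as a transcribed pseudogene in the RefSeq reference strain. It had 1 count in control replicate 4, 15 counts in Dox replicate 11 and 0 counts in the other 4 libraries, too few to test. H2-Eb2, a further β chain gene beside H2-Eb1, had 19, 21 and 25 counts without Dox and 164, 123 and 254 with Dox, and rose by 2.59 ± 0.44 (SE) on the log2 scale (edgeR adjusted p = 0.00102).

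The H2-DM genes did not move as a block. H2-DMa, the only α chain gene of the editor, was at 17.7, 16.1 and 21.2 CPM in the control and 28.4, 41.5 and 35.1 CPM in the Dox libraries. These groups did not overlap but were close, at 1.91-fold (log2 fold change 0.93 ± 0.26 (SE), edgeR adjusted p = 0.0143). The call was lost without control replicate 4 (adjusted p = 0.0725), without control replicate 5 (0.0952) and without the low-count filter (0.0517). H2-DMb1, a β chain gene, was at 5.79, 5.84 and 11 CPM in the control and 48.6, 37.3 and 29.7 CPM in the Dox libraries (5.10-fold, log2 fold change 2.35 ± 0.35 (SE), edgeR adjusted p = 0.000444). H2-DMb2, the other β chain gene, was at 7.42, 5.04 and 4.89 CPM in the control and 155, 170 and 114 CPM in the Dox libraries. The control libraries of H2-DMb2 rest on 25 to 50 counts, and its rise of 25-fold (log2 fold change 4.64 ± 0.27 (SE), edgeR adjusted p = 2.15e-06) was exceeded or equalled by 1.67% of tested genes.

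The H2-DMb genes are similar in sequence, so the split of reads between them was checked in the GENCODE transcripts of GRCm38. Their longest transcripts shared an exact run of 221 bases, but in the last 300 bases, where a 3′ library reads, the longest shared run was 23 bases and the identity 64.6%. In the 54 other pairs among 11 class II genes the longest shared run in that end was 11 bases. How the authors assigned reads that fit more than 1 place is not stated, so the values of this pair carry that limit.

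The H2-DO genes went apart more than any other pair of partner chains. H2-Oa was at 6.82, 4.03 and 4.72 CPM in the control and 8.66, 14.4 and 5.90 CPM in the Dox libraries, from 20 to 46 and from 45 to 141 counts. A Dox library lay below a control library, and H2-Oa was not called (log2 fold change 0.89 ± 0.50 (SE), edgeR adjusted p = 0.173, range 0.0713 to 0.497 over the alternatives). H2-Ob, the β chain, was at 0.742, 1.41 and 1.52 CPM in the control and 57.1, 55.9 and 60.7 CPM in the Dox libraries. The Dox libraries were tight (coefficient of variation 4.30%), and the control libraries held 5, 7 and 9 counts. H2-Ob changed by a log2 fold of 5.57 ± 0.33 (SE), a 47.5-fold rise (edgeR adjusted p = 2.40e-06), and 0.985% of tested genes rose as much. H2-Ob entered the test only through the Dox group, since no control library reached the 1.47 CPM that the filter asks for before TMM scaling.

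Ciita, on chromosome 16 (GRCm38.p6, 10480014 to 10531064), was at 5.34, 3.22 and 3.54 CPM in the control and 79.6, 79.1 and 72.6 CPM in the Dox libraries. The 3 Dox libraries agreed within 5.06% (coefficient of variation) and none approached the controls, which held 16 to 36 counts. Ciita changed by a log2 fold of 4.23 ± 0.27 (SE), an 18.8-fold rise (edgeR adjusted p = 3.09e-06). The rise of the transactivator thus lay between that of the classical chains and that of H2-Ob.

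Within the Dox group the members did not vary alike. In replicate 12, H2-Aa was 0.81 below its Dox mean on the log2 scale, with deviations of -0.48 for H2-Ab1, -0.46 for H2-Eb1, -0.34 for H2-DMb1 and H2-DMb2 and -0.30 for Cd74. H2-Ob (0.07), Ciita (-0.08) and H2-DMa (0.02) stayed close to their Dox means in the same library, while H2-Oa was at -0.58. Each deviation is from 1 library and has no test of its own.

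Ratios of counts within a library do not depend on how libraries are scaled, and they were used to compare members with each other. H2-Ob to H2-Oa was 0.109, 0.350 and 0.321 in control and 6.59, 3.87 and 10.3 in Dox libraries. Every control library thus held more H2-Oa than H2-Ob reads, and every Dox library the reverse. The mean log2 ratio rose from -2.04 ± 0.90 to 2.67 ± 0.70 (SD, n = 3 each), a 26.1-fold shift (two-sided exact permutation test, p = 0.1, which is the least that 3 against 3 can give, adjusted p = 0.2 over the 8 ratios computed). H2-DMb2 to H2-DMb1 went from 1.28, 0.862 and 0.446 to 3.18, 4.56 and 3.82, a 4.81-fold shift with groups that did not overlap (exact permutation p = 0.1, adjusted p = 0.2). The sum of the H2-DMb genes to H2-DMa, a ratio added after the values were seen, was 0.748, 0.675 and 0.746 in control and 7.15, 4.99 and 4.09 in Dox libraries. Thus in H2-DM, as in H2-DO, the β chain genes gained on the α chain gene in each Dox library, here by 7.26-fold (exact permutation p = 0.1).

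Other ratios moved less. H2-DO genes to H2-DM genes went from a mean log2 ratio of -2.29 ± 0.27 to -1.69 ± 0.23 (SD, n = 3 each), and Ciita to the sum of the other members from -6.11 ± 0.48 to -5.16 ± 0.34. Neither pair of groups overlapped (exact permutation p = 0.1 and adjusted p = 0.2 for each). For H2-Ab1 to H2-Aa, H2-Eb1 to H2-Aa, the classical chains to Cd74 and the H2-DM genes to the classical chains the groups overlapped, with log2 differences of -0.31, -0.49, -0.36 and -0.45 (exact permutation p from 0.2 to 0.3). A p-value in this design cannot pass 0.05, so it does not show that these ratios were alike.

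**Figure D2:**
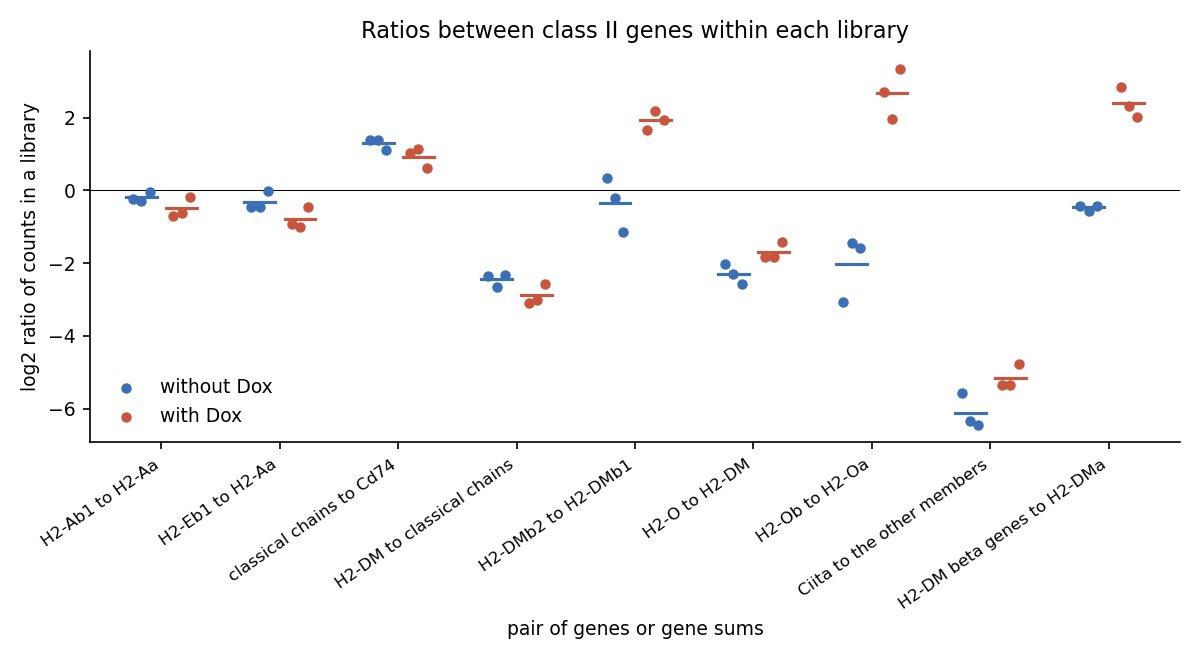
Log2 ratios of counts between class II genes or gene sums within each library (points), with group means (bars). The ratios of H2-Ob to H2-Oa and of the H2-DMb genes to H2-DMa are separated most, and the 3 ratios among the classical chains and Cd74 overlap between groups.

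The 8 H2 members share a stretch of chromosome 17, from 34092379 (the lower end of H2-Oa) to 34316674 (the upper end of H2-Eb1) in GRCm38.p6. The submitters' processing notes name that build without a patch. The genes are ordered with H2-Oa at one end and the classical genes at the other. Genes of the class I pathway sit among them. Of the 4 described here 1 rose, 2 fell and 1 was not called. Tap1, a subunit of the peptide transporter TAP, rose by 1.58 ± 0.21 (SE) on the log2 scale (edgeR adjusted p = 0.000196). Tap2, the other subunit, fell by 2.47 (SE 0.63, edgeR adjusted p = 0.00959), with 945, 1377 and 1686 counts without Dox and 571, 412 and 57 with Dox. Without Dox replicate 10 its log2 fold change was -3.25. Psmb8, an immunoproteasome subunit, fell by 1.83 (SE 0.18, edgeR adjusted p = 3.09e-05). Psmb9, another such subunit, was not called, at -0.63 ± 0.51 (SE, edgeR adjusted p = 0.338, and 0.00366 with no low-count filter). These neighbours were named for their position, after their values were seen.

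A neighbour of H2-Ob was also higher with Dox. Gm20506, a predicted gene that RefSeq places between H2-Ob and H2-Ab1, had 0, 2 and 1 counts without Dox and 105, 186 and 48 with Dox (edgeR adjusted p = 0.000377), and like H2-Ob it entered the test only through the Dox group. Brd2, a bromodomain gene that overlaps the annotated span of H2-DMa on the opposite strand, fell by 0.79 (SE 0.20, edgeR adjusted p = 0.00852, and 0.0597 with libraries scaled by size only). GENCODE also places genes on the opposite strand of H2-Oa, H2-Eb1 and Ciita, and on the same strand within H2-DMa and Cd74 (Mir5107, a microRNA gene). Whether the authors counted by strand is not stated, so reads of opposite-strand pairs may not be fully separated, and counting by strand would not separate the same-strand pairs.

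**Figure D3:**
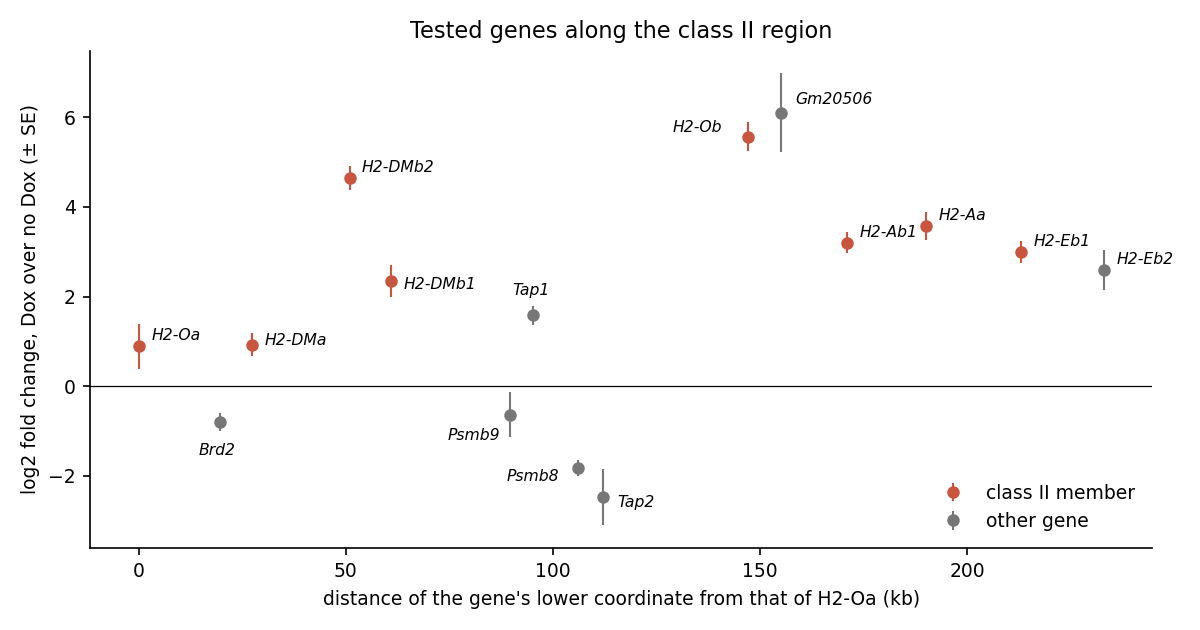
Log2 fold change (Dox over no Dox, ± SE) of the tested genes of the class II region by distance from H2-Oa in kb. Members (red) are above 0 throughout, and Brd2, Psmb9, Psmb8 and Tap2 (grey) are below 0.

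The genes around the members were taken from lists, and 26 of the 47 tested were higher and 4 lower with Dox. Of all tested genes 23.6% were higher and 22.1% lower. Cd40 and Icosl entered only through the Dox group, and Socs1 only through the control group. Of 9 genes for the proteins that assemble on class II promoters, 3 were higher and none lower, and the median log2 fold change was -0.06. Rfx5, the DNA-binding subunit of the RFX complex, rose by 1.52 ± 0.29 (SE), Ep300 by 1.63 ± 0.25 and Crebbp, like Ep300 a histone acetyltransferase, by 1.06 ± 0.21 (edgeR adjusted p = 0.00203, 0.000584 and 0.00261). The other RFX subunits, Rfxap (log2 fold change -0.77 ± 0.47 (SE)) and Rfxank (-0.06 ± 0.68), did not pass the threshold, nor did the NF-Y subunit genes Nfya, Nfyb and Nfyc (-0.42, -0.39 and -0.31) or Creb1 (0.33).

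Of 13 genes known to act upstream of Ciita, 11 were higher and 1 lower (median log2 fold change 1.52). Pax5, the B lineage transcription factor, rose by 5.08 ± 0.21 (SE) and Irf8, a factor of B cells and dendritic cells, by 4.15 ± 0.20 (edgeR adjusted p = 5.37e-07 and 1.05e-06). Spi1, the gene of PU.1, rose by 2.41 ± 0.52 (SE, edgeR adjusted p = 0.00417). Of genes known from interferon-γ signalling, Irf1 rose by 1.66, Ifngr1 by 1.42 and Jak1 by 0.94, while Jak2, the only gene of the list that was not called, was at 0.52 (edgeR adjusted p = 0.0611). The list also holds inhibitors, which did not move together. Socs1, an inhibitor of JAK kinases, fell by 2.52 (SE 0.61, edgeR adjusted p = 0.00737), with 158, 187 and 203 counts without Dox and 84, 39 and 10 with Dox. It entered the test only through the control group, where it is high. Without Dox replicate 10 its log2 fold change was -3.57. Prdm1, the gene of BLIMP-1, which represses Ciita in plasma cells, rose by 1.70 ± 0.48 (SE, edgeR adjusted p = 0.0163).

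Of 13 genes listed for the supply of peptides, 7 were higher and 2 lower (median 0.53). Ctss, the gene of cathepsin S, which trims the invariant chain in B cells and dendritic cells, averaged 127 ± 12.2 CPM in control and 511 ± 76.4 CPM in Dox libraries (SD, n = 3 each), a 4.02-fold rise (edgeR adjusted p = 1.60e-05). Ctsh, another cathepsin gene, rose by 1.58 ± 0.26 (SE) on the log2 scale, and Ifi30, the endosomal thiol reductase GILT, by 1.14 ± 0.17 (edgeR adjusted p = 0.000780 and 0.000498). Sppl2a, the intramembrane protease that clears the last fragment of the invariant chain, rose by 0.53 ± 0.16 (SE, edgeR adjusted p = 0.0241). Ctsl, Ctsb and Ctsd, proteases of lysosomes in many cell types, did not pass the threshold, at -0.11, -0.30 and -0.21. The cathepsin inhibitors of the list went apart. Cstb fell by 1.92 (SE 0.39, edgeR adjusted p = 0.00279), whereas Cst3 rose by 0.71 (SE 0.21, edgeR adjusted p = 0.0185). The list also held Tap1 and Tap2, given above, which serve class I rather than class II.

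Of 7 genes listed for the turnover of class II at the membrane, 6 were tested, with 2 higher and 1 lower. Marchf1, the ubiquitin ligase that removes class II from the surface, averaged 11.4 ± 1.92 CPM in control and 98.7 ± 53.2 CPM in Dox libraries (SD, n = 3 each, edgeR adjusted p = 0.000123). Cd83, which opposes that ligase, went from 4.04 ± 0.847 to 45.7 ± 13 CPM (SD, n = 3 each, edgeR adjusted p = 2.86e-05). So the ligase and its opponent rose together. The one that fell was Ap1m1, an adaptor subunit of vesicle coats, by 1.01 (SE 0.37, edgeR adjusted p = 0.0467). That call was lost in 7 of 15 alternatives: without control replicate 4, 5 or 6 (adjusted p = 0.104, 0.102 and 0.0738), with libraries scaled by size only (0.135) or by upper-quartile factors (0.0663), with at least 10 counts in every library (0.0569), and at a threshold of 0.01.

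Of 7 costimulation genes, which give the second signal to T cells, 5 were tested and 2 were higher. Icosl, the ligand of ICOS, had 1, 1 and 4 counts without Dox and 279, 159 and 129 with Dox (edgeR adjusted p = 6.20e-05). Cd40, the receptor by which helper T cells activate B cells, had 15, 8 and 0 counts without Dox and 137, 259 and 260 with Dox (edgeR adjusted p = 0.000880). Both entered the test only through the Dox group, where they are high. Cd86 was not called, at 0.41 ± 0.40 (log2 scale, SE, edgeR adjusted p = 0.432), and Cd80, with 1 to 41 counts a library, was not tested.

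**Figure D4:**
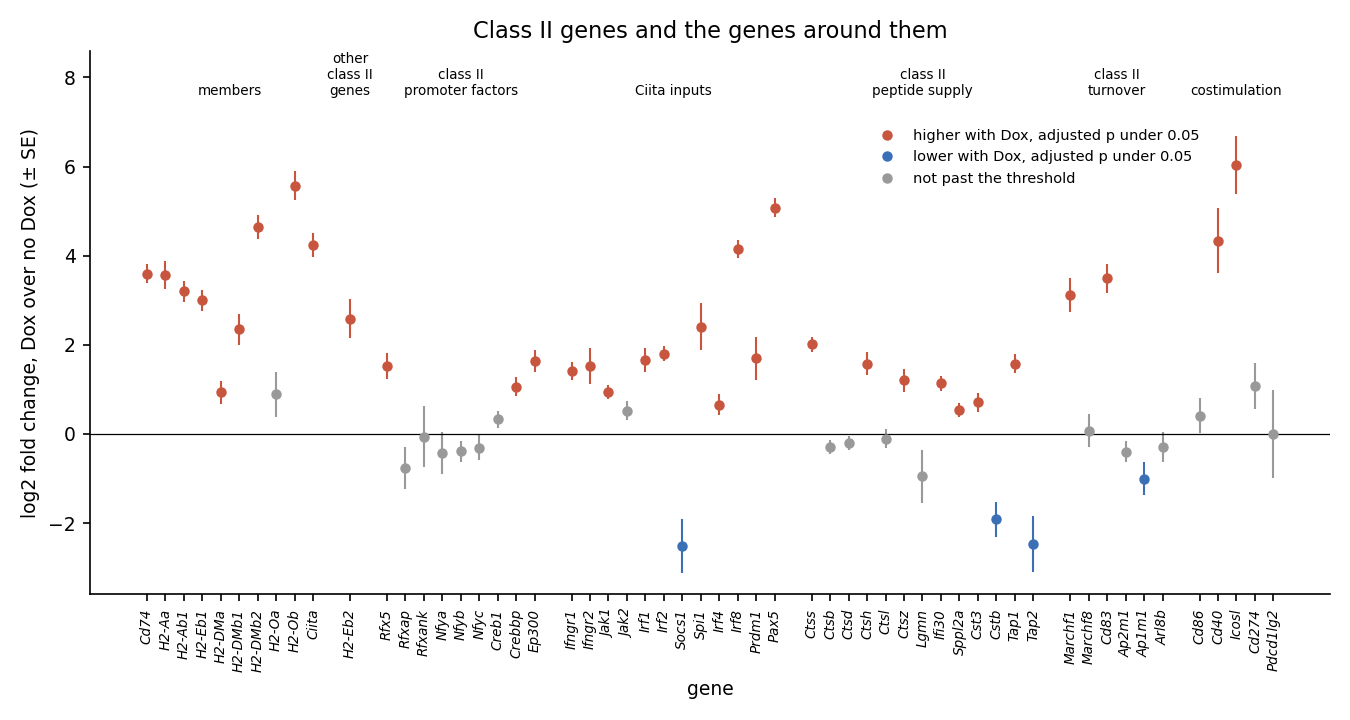
Log2 fold change (Dox over no Dox, ± SE) of the members and of tested genes of the pathway lists, coloured by the edgeR call. Members span 0.89 (H2-Oa) to 5.57 (H2-Ob), and the promoter factors lie from -0.77 (Rfxap) to 1.63 (Ep300).

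Markers of B cells and dendritic cells, which carry class II, were mostly higher with Dox. All 15 B cell markers were higher, 6 of which entered the test only through the Dox group, and the summed level of the list went from 70.6 to 80.0 CPM up to 2546 to 2711 CPM. Ms4a1 (CD20) averaged 4.65 ± 0.619 CPM in control and 585 ± 18.6 CPM in Dox libraries (SD, n = 3 each). The B cell sum thus rose further than the class II sum. The log2 ratio of the class II sum to the B cell sum fell from 1.88 ± 0.12 to 0.12 ± 0.37 (SD, n = 3 each), a 3.40-fold shift with separate groups (exact permutation test, p = 0.1, adjusted p = 0.117 over 7 marker lists). The median log2 fold change was 5.08 for the B cell list and 3.38 for the members. Single genes overlapped, with Pou2af1 of the B cell list at 1.64 and the member H2-Ob at 5.57. Pax5 is counted both here and among the genes upstream of Ciita. The part of B cells in the class II rise was not tested.

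Of 10 dendritic cell markers 8 were tested and 7 were higher. Of the tested genes 4 entered only through the Dox group. The sum of the list went from 12 to 21.4 CPM up to 126 to 137 CPM. Flt3 was at 0.696 ± 0.746 and 19.8 ± 8.48 CPM, and Itgax (CD11c) at 3.09 ± 1.52 and 15.2 ± 4.13 CPM (SD, n = 3 each). Cd209a was near 0 in both groups, with 3 counts in 1 control library and 0 in the other 5 libraries. The log2 ratio of class II to these markers was 4.16 ± 0.53 in control and 4.45 ± 0.37 in Dox libraries (SD, n = 3 each), and the groups overlapped (exact permutation p = 0.7, adjusted p = 0.7). With mean log2 levels in place of sums the difference was 0.88 instead of 0.29. The part of dendritic cells was not tested.

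Macrophage and monocyte markers were mixed, with 6 of 14 higher (1 of these, Ccr2, entering only through the Dox group) and 4 lower, and a sum of 549 to 660 CPM without Dox and 820 to 1066 CPM with Dox. Marco, a scavenger receptor of marginal zone macrophages, rose from 9.15 ± 3.32 to 135 ± 41.1 CPM (SD, n = 3 each, edgeR adjusted p = 1.59e-05), and Mertk, a receptor for the uptake of dying cells, from 24.5 ± 3.65 to 97.0 ± 11.9 CPM (SD, n = 3 each, edgeR adjusted p = 4.64e-05). Both were named after their values were seen. Adgre1 (F4/80) fell from 15.9 ± 3.85 to 4.95 ± 1.72 CPM (SD, n = 3 each, edgeR adjusted p = 0.00786, and 0.0551 without control replicate 4). Csf1r was at 84.0 ± 13.3 and 141 ± 60.4 CPM, below the threshold in the reported fit (edgeR adjusted p = 0.0740) and past it in 6 of 15 alternatives, among them libraries scaled by size only (0.0224), DESeq2 (0.0496) and leaving out Dox replicate 12 (0.000721). The class II sum rose relative to this list by 2.62 on the log2 scale (exact permutation p = 0.1, adjusted p = 0.117), and the part of macrophages was not tested.

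The remaining lists describe the setting. All 10 neutrophil markers were higher with Dox (sum 52.1 to 69.6 CPM without Dox and 2212 to 2350 CPM with Dox, 6 of them entering only through the Dox group, and Ly6g at 0 counts in every control library). Of 10 T cell markers 8 were lower and none higher, with a sum of 2151 to 2271 CPM without Dox and 245 to 348 CPM with Dox. Cd3e went from 194 ± 25.3 to 18.7 ± 8.20 CPM (SD, n = 3 each, edgeR adjusted p = 3.53e-05). The labels give all 6 libraries the same source, splenic leukaemia cells, yet T cell markers were high in the control libraries, and B cell and neutrophil markers in the Dox libraries. Erythroid markers were 4 higher and 2 lower of 8. Among the haemoglobin genes of that list, Hba-a1 and Hba-a2 rose by 0.95 and 1.01 on the log2 scale. Hbb-bs fell by 1.23, and Hbb-bt was not called (-0.24). Of 6 endothelial markers 5 were tested (Tek only through the Dox group) and 2 were higher, and Emcn was near 0 in both groups, with 1 count in 1 control library. The shares of these cells in the class II differences were not tested.

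**Figure D5:**
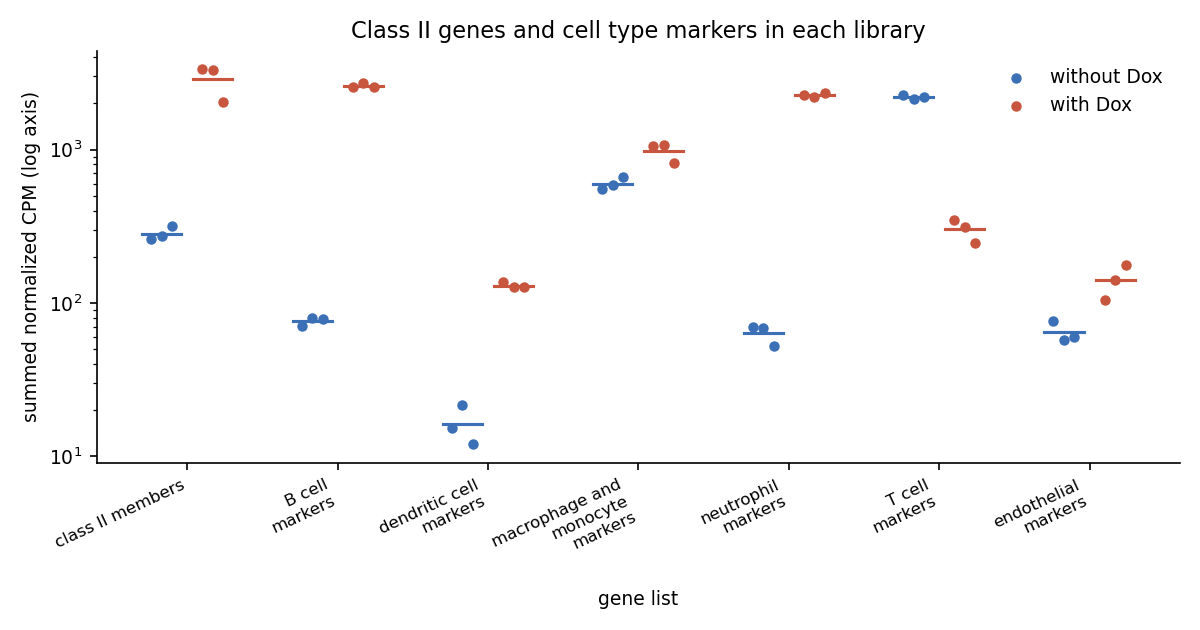
Summed normalized CPM of the 10 class II genes and of 6 marker lists in each library (points, log axis) with group means (bars). Class II lies between the B cell and macrophage lists in the size of its rise, and the T cell sum is lower in every Dox library.

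Genes outside the lists whose profile over the 6 libraries was nearest to the mean profile of the members were found among 7046 tested genes of at least median level. Likeness was the root mean square difference of centred log2 CPM. With 3 libraries in each of 2 groups it depends mostly on how near a gene's fold change is to that of the members. The nearest was H2-K1, a classical class I heavy chain, at 0.09, followed by Sema4a (0.13), a semaphorin, and by 6430548M08Rik, Pea15a and Cd52 (0.16 each). H2-K1 averaged 194 CPM in control and 1716 CPM in Dox libraries, and belongs to a family of similar genes among which reads may be split. On the same measure the members themselves ran from 0.09 for H2-Ab1 to 1.12 for H2-DMa and 1.20 for H2-Oa. H2-Oa and H2-DMa were thus farther from the mean profile than any other member, followed by H2-Ob at 1.05.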

How the data were processed

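The labels' protocols name DNase-treated RNA and a QuantSeq 3′ mRNA kit (forward version), which reads 1 fragment per transcript end. Counts were therefore not scaled by length. The authors deposited raw counts per Entrez gene ID, 1 column for each of 6 libraries, with 0 columns left unmatched. The submitters' processing notes name STAR, featureCounts and GRCm38. Versions, annotation, strand setting and multi-mapping are not given in the sources used here.

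Symbols came from RefSeq (GRCm38.p6), for 96.5% of IDs. Low-count genes were removed by filterByExpr (count 10, total 15), which asks for 1.47 CPM in 3 libraries. A gene entered only through 1 group where all 3 of its libraries, and not all 3 of the other group, reached that. Libraries were scaled by TMM, and the tests came from edgeR 4.0.16 under R 4.3.3 (glmQLFit and glmQLFTest, Benjamini-Hochberg over all tested genes). The SE of a log2 fold change is its size divided by the square root of F. The code was tested on simulated data. DESeq2 1.42.0 and limma 3.58.1 (voom) were alternatives. Ratios had 0.5 counts added to each side and exact permutation tests.

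The members and lists were chosen with earlier results of these data known. Named genes were all members, up to 4 called genes a list by size of change, H2-Ea and H2-Eb2, defining markers, and the 5 nearest profiles. Further list genes, the neighbours in the region and the ratio of the H2-DMb genes to H2-DMa were named after their values were seen. Some genes of the lists are counted in them and not reported here by name.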

Additional observations from a re-analysis of the deposited data

How the results depend on the processing

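No paired analysis was possible because replicate numbers 4 to 6 and 10 to 12 have none in common. Of the 10 members, 8 kept their direction and call in each alternative that tested them, H2-Oa stayed short of the threshold in each, and H2-DMa lost its call in 4 (no filter, without control replicate 4 or 5, and at an adjusted p under 0.01). With at least 10 counts in every library H2-Ob was not tested. The summed class II level, a log2 ratio of 3.36, was 3.66 with libraries scaled by size only, which moved the median of all genes by 0.30. Taking mean log2 levels in place of sums, class II against dendritic cell markers was 0.88 and against macrophage and monocyte markers 2.39, and the cause was not tested. At an adjusted p under 0.01, 2200 genes rather than 3324 were higher, as follows from the stricter limit. Leaving out 1 library at a time gave 8 to 9 members called, 4795 to 7025 genes called, a summed class II log2 ratio of 3.24 to 3.55, and 4.19 to 5.07 for the log2 shift of H2-Ob to H2-Oa. The low control counts of H2-Ob, H2-Oa, Ciita and the H2-DMb genes limit the precision of their folds.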
